A study of Mus musculus with 4 samples.

Results

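Proteoglycans are proteins that carry long sulfated sugar chains. Those in the matrix space out and organise collagen fibres, store growth factors and build basement membranes, and those on the cell surface present ligands to their receptors. In lung, decorin, biglycan and lumican are made largely by fibroblasts, versican accumulates in the provisional matrix of injured or tumor-bearing tissue, and perlecan is a structural part of the alveolar and capillary basement membranes. The 10 genes described here were chosen by name from the 56748 genes of the count table, and each was found in 1 row. They comprise the chondroitin or dermatan sulfate proteoglycans Vcan, Dcn and Bgn, the keratan sulfate proteoglycans Lum and Fmod, the basement membrane heparan sulfate proteoglycans Hspg2 and Agrn, and the cell surface heparan sulfate proteoglycans Sdc1, Sdc4 and Gpc1. All 10 passed the filter on low counts.

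Bulk RNA sequencing was available for 4 lung samples with metastases of 4T1, a mouse triple-negative breast cancer (TNBC) line. Female BALB/cJ mice of 7 weeks were injected through the tail vein with 4T1-FLuc cells, which carry luciferase. The Saline group (n = 2, named PBS control in the treatment label) was compared with the ADC/cmLumiOpto group (n = 2), harvested after 3 weeks of treatment. The ADC was an anti-CD276 antibody linked to the microtubule inhibitor DM1, and the labels give its dose as 16 mg/kg while the paper's methods give a lower one. The gene therapy cmLumiOpto was a CD276-targeted vector for a light-gated mitochondrial channel expressed from a cfos promoter. The treatment label reads cmLumi-Olap, and whether Olap stands for a further agent is not stated in the sources used here. No sample received the ADC or the vector alone, so the effects of these 2 agents, or of any further one, cannot be told apart. The labels describe tumor cells taken from the lung, whereas the paper describes dissociated lung tissue.

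The depth was between 15263375 and 19675436 counts per sample, and a floor of 3 counts corresponds to between 0.146 and 0.202 CPM (counts scaled by library size and TMM factor) for counting error only. RNA of lung cells was present in all 4 samples. The summed level of 9 alveolar type 2 cell markers was 3456 and 1646 CPM in Saline and 10052 and 7402 CPM in ADC/cmLumiOpto. Sftpc made up 1017 and 174 CPM of this in Saline and 4321 and 3426 CPM after treatment. Lyz2 made up 1687 and 1128 against 4299 and 2447 CPM. Of the 9, 7 had both treated samples above both Saline samples (28.1% of the genes tested). The other 2, Abca3 and Etv5, had both below (28.8%). These 4 genes were named after their values were seen. The summed level of 7 airway epithelial markers was 1156 and 85.5 against 6243 and 2980 CPM. Scgb1a1, named after its values were seen, made up 1085 and 73.9 CPM of this in Saline and 5819 and 2781 CPM after treatment. Of the 7, 6 had both treated samples above both Saline samples (28.1% of the genes tested) and 0 had both below (28.8%). Of the 8 alveolar type 1 markers, 7 were higher in both treated samples than in both Saline samples, as were 28.1% of the 15320 genes tested. Of 10 endothelial markers, 8 were likewise higher in both treated samples (28.1% of the genes tested), with sums of 595 and 464 against 668 and 971 CPM. The 12 markers of mammary tumor epithelium, of which Krt6a had no count, summed to 3198 and 3479 CPM in Saline and 3106 and 3004 CPM after treatment. Of 10 tested, 3 had both treated samples below both Saline samples (28.8% of the genes tested) and 3 had both above (28.1%). How far lung epithelium contributed to these sums was not tested, so they do not measure tumor content. Leukocyte markers summed to 1234 and 937 CPM in Saline and to 1186 and 3910 CPM in ADC/cmLumiOpto. S100a8, a neutrophil gene, made up 3089 CPM of the last of these sums, and the other 16 markers summed to 779.9, 767, 764 and 821 CPM in the same order (S100a8 was set apart after its values were seen, as were the collagens below). Of these 16, 5 had both treated samples above both Saline samples (28.1% of the 15320 genes tested) and 1 had both below (28.8%). Of 15 leukocyte markers tested, 12 had a log2 fold change above 0 and 3 below (48.0% of all genes below), with a median of 0.84. The sum of 10 mural markers was 225 and 260.1 CPM in Saline and 181 and 161 CPM after treatment. Acta2, named after its values were seen, made up 126 and 148 CPM of this in Saline and 89.7 and 52.2 CPM after treatment. Of the 10, 4 had both treated samples below both Saline samples (28.8% of the genes tested) and 2 had both above (28.1%). Sums for 5 mesothelial and 7 plasma cell markers ranged from 145 to 241 and 185 to 304 CPM, with overlapping groups, and the plasma cell marker Tnfrsf17 had no count. Xbp1 made up 243 and 177 CPM of the plasma cell sum in Saline and 243 and 203 CPM after treatment. Jchain was at 48.0 and 0.809 CPM in Saline and at 6.23 and 1.02 CPM after treatment. Both were named after their values were seen. In bulk tissue, fewer cells of a type and less RNA per cell cannot be told apart, and the part of these cell types in the results below was not tested.

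All 10 genes had a log2 fold change below 0 after ADC/cmLumiOpto, from -2.14 for Lum to -0.078 for Agrn, although Agrn stood at 0.0062 with upper-quartile normalization. Their median was -0.46, against 0.028 for all 15320 genes tested. In 7 of them the values of the groups were apart, with the treated samples lower, which was also the case for 28.8% of all genes, while 28.1% had both treated samples above both Saline samples. With edgeR's quasi-likelihood test and Benjamini-Hochberg adjustment, 0 of the 10 genes and 0 of all genes (0%) had an adjusted p under 0.05. Over all genes, 3553 passed at an unadjusted p under 0.05, and the adjusted count was 1353 in DESeq2, 1170 in the edgeR exact test and 0 in limma-voom. At an unadjusted p under 0.05, 7 of the 10 were lower and 0 were higher, where the shares of all genes were 12.2% and 11%. Of these 7, Dcn, Bgn, Lum, Sdc1 and Gpc1 had unadjusted p values between 0.042 and 0.045 in edgeR. The count of lower members was 3 with upper-quartile normalization (9.13% of all genes) and 4 with library size alone (9.84% of all genes). Only Vcan and Hspg2 of the 10 genes had an adjusted p under 0.05 in DESeq2 and in the edgeR exact test, and 0 did in limma-voom.

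**Figure D1:**
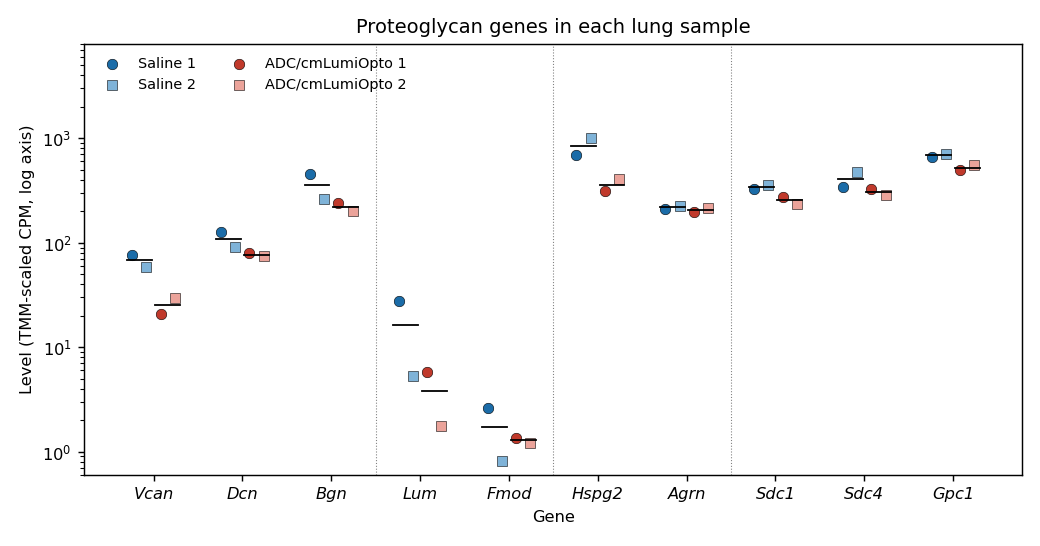
Level of each of the 10 proteoglycan genes in each sample, in TMM-scaled CPM on a log axis, with black bars for the mean of each group of 2 samples and dotted lines between the classes. The treated samples (red) lie below the Saline samples (blue) in 7 genes and overlap them in Lum, Fmod and Agrn.

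Versican, encoded by Vcan (ENSMUSG00000021614, chr13:89803431-89890628, minus strand), is a large chondroitin sulfate proteoglycan that binds hyaluronan. Here and below, positions are those listed with the counts, for which the submitters' processing notes name mm39. Vcan was at 76.1 and 59.1 CPM in the Saline samples and at 20.7 and 29.5 CPM in the ADC/cmLumiOpto samples. The groups did not overlap, and the mean of 67.6 ± 12 CPM (SD, n = 2) in Saline was 2.69 times the 25.1 ± 6.19 CPM (SD, n = 2) after treatment. The log2 fold change was -1.43 (standard error 0.24, 95% interval -1.99 to -0.86, edgeR adjusted p = 0.116). Leaving out single samples gave values from -1.71 to -1.20.

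Decorin and biglycan are small leucine-rich proteoglycans with dermatan or chondroitin sulfate chains that bind collagen and TGF-β. Dcn (ENSMUSG00000019929, chr10:97315471-97354005, plus strand) was at 126 and 91.9 CPM in Saline and at 79.6 and 74.4 CPM after treatment. Its treated samples were close to each other and both lay below the lower Saline sample, with a log2 fold change of -0.50 (standard error 0.20, edgeR adjusted p = 0.203). Bgn (ENSMUSG00000031375, chrX:72527208-72539539, plus strand) was at 453 and 261 CPM in Saline and at 239.8 and 199.8 CPM after treatment, and its log2 fold change was -0.70 (standard error 0.28, edgeR adjusted p = 0.1999). In both genes the first Saline sample was the higher, by 1.37 times for Dcn and 1.74 times for Bgn. Without this sample the log2 fold changes were -0.27 for Dcn and -0.26 for Bgn.

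Lumican and fibromodulin are keratan sulfate proteoglycans that regulate the diameter of collagen fibrils. Lum (ENSMUSG00000036446, chr10:97400990-97408565, plus strand) was counted 441 and 79 times in Saline and 102 and 36 times after treatment, that is 27.6, 5.32, 5.78 and 1.76 CPM. The groups overlapped, since the second Saline sample lay below the first treated sample. The log2 fold change of -2.14 was the lowest of the 10 genes but had the widest interval of those that passed an unadjusted p of 0.05 (-4.17 to -0.10, edgeR adjusted p = 0.1999). It was -0.52 without Saline replicate 1 and -3.22 without ADC/cmLumiOpto replicate 1. Fmod (ENSMUSG00000041559, chr1:133964992-133976015, plus strand) was near the filter, with 42 and 12 counts in Saline and 24 and 25 after treatment. Its log2 fold change was -0.42 (95% interval -2.0 to 1.16, edgeR adjusted p = 0.732), and it was 0.66 without Saline replicate 1. A difference in Fmod was not detectable at this depth and spread.

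Perlecan and agrin are large heparan sulfate proteoglycans of basement membranes. Hspg2 (ENSMUSG00000028763, chr4:137196080-137297941, plus strand), which encodes perlecan, was at 697 and 1008 CPM in Saline and at 313 and 408 CPM after treatment. The groups were apart, with means of 852 ± 220.1 CPM (SD, n = 2) and 361 ± 66.8 CPM (SD, n = 2). Its log2 fold change was -1.24 (standard error 0.24, 95% interval -1.82 to -0.66, edgeR adjusted p = 0.116), and it ranged from -1.50 to -0.95 when single samples were left out. Agrn (ENSMUSG00000041936, chr4:156249747-156281945, minus strand), which encodes agrin, was at 212 and 225 CPM in Saline and at 197 and 217 CPM after treatment. The groups of Agrn overlapped, and the 95% interval of its log2 fold change, -0.46 to 0.30, did not reach the value of Hspg2. In the same sample, where scaling between samples plays no part, the per-length level of Hspg2 was 2.07 and 2.82 times that of Agrn in Saline and 1.00 and 1.18 times after treatment. These ratios did not overlap between the groups (two-sided exact permutation p = 0.333, the smallest that 2 against 2 samples allow).

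Syndecans and glypicans hold heparan sulfate at the cell surface, syndecans through a membrane-spanning protein and glypicans through a lipid anchor, and serve as co-receptors for growth factors. Sdc1 (ENSMUSG00000020592, chr12:8821323-8843715, plus strand), the syndecan of epithelial cells and plasma cells, was at 327 and 354 CPM in Saline and at 275 and 237 CPM after treatment. Sdc4 (ENSMUSG00000017009, chr2:164266167-164285807, minus strand), a syndecan of focal adhesions, was at 340.3 and 475 CPM in Saline and at 329.7 and 287 CPM after treatment. Gpc1 (ENSMUSG00000034220, chr1:92759367-92788501, plus strand), the first member of the glypican family, was at 668 and 711 CPM in Saline and at 497 and 550.3 CPM after treatment. All 3 genes had lower values in both treated samples, although the gap between the groups was narrow for Sdc4. Their treated means were 0.752, 0.756 and 0.760 of the Saline means, and their log2 fold changes were -0.41, -0.40 and -0.40. The value of Sdc4 was -0.14 without Saline replicate 2 and -0.64 without Saline replicate 1. The edgeR adjusted p values were 0.202, 0.289 and 0.206, in the order given. The level of Sdc4 relative to that of Sdc1, and of Gpc1 relative to Sdc1, overlapped between the groups, with log2 differences of 0.026 and 0.015 (exact permutation p = 1 for both, among 5 ratios compared).

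**Figure D2:**
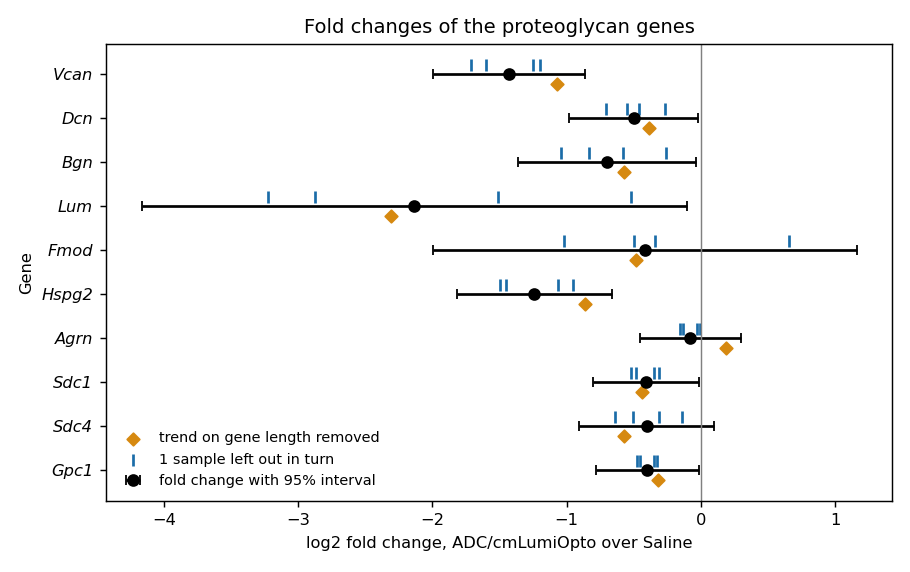
Log2 fold change of ADC/cmLumiOpto over Saline for the 10 genes, with the 95% interval (black), the values with 1 sample left out in turn (blue ticks) and the value once the trend on gene length was removed (orange diamonds). The intervals are those of the edgeR fit without these changes, and lie below 0 for Vcan, Dcn, Bgn, Lum, Hspg2, Sdc1 and Gpc1. The points of these genes lie below 0 in each setting shown, and Lum and Fmod move widely with the sample left out.

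The other ratios within a sample were as follows. The level of Vcan per length relative to that of Bgn was 0.0709 and 0.0957 in Saline and 0.0365 and 0.0623 after treatment, with no overlap (exact permutation p = 0.333, the smallest possible). Their lengths are 14462 and 6099 bases, and the trend on gene length given below was not removed from the ratios. With it removed, the log2 fold changes were -1.07 for Vcan and -0.57 for Bgn, against -1.43 and -0.70. Lum relative to Dcn, its neighbour on chromosome 10, was at 0.523 and 0.138 in Saline and 0.173 and 0.0563 after treatment, and these values overlapped (exact permutation p = 0.667). Lum lies 47.0 kb from Dcn on the same strand, with 0 protein-coding genes between them, and Kera and Epyc, the next leucine-rich proteoglycan genes of that cluster, had no count in any sample. In the cluster on chromosome 1, Fmod had 12 to 42 counts per sample while Prelp had 213 and 94 in Saline and 362 and 429 after treatment.

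Levels were compared between genes only per length, as RPKM (TMM-scaled CPM per kilobase of the listed gene length). In Saline the order was Sdc4 at 160.1 ± 37.4, Gpc1 at 134 ± 5.96, Sdc1 at 89.4 ± 5.15, Bgn at 58.5 ± 22.3 and Hspg2 at 57.8 ± 14.9 RPKM (SD, n = 2). Agrn at 23.5 ± 1.03, Dcn at 18.6 ± 4.11, Lum at 6.72 ± 6.43, Vcan at 4.68 ± 0.833 and Fmod at 0.519 ± 0.389 RPKM (SD, n = 2) followed. The samples of Sdc4 and Gpc1 overlapped, as did those of Bgn and Hspg2 and those of Lum and Vcan. After treatment the first 7 kept their order and Vcan, at 1.74 ± 0.428 RPKM, came before Lum, at 1.54 ± 1.16 RPKM (SD, n = 2), with overlapping samples. The 10 genes summed to 532 and 575 RPKM in Saline and to 398 and 381 RPKM in ADC/cmLumiOpto. The 3 cell surface genes made up 65.6% and 72.6% of this sum in Saline and 74.9% and 73.8% after treatment. Vcan, Dcn and Bgn together made up 19.0% and 10.9% in Saline and 13.7% and 12.5% after treatment, so that the spread between the Saline samples was larger than the difference between the groups.

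**Figure D3:**
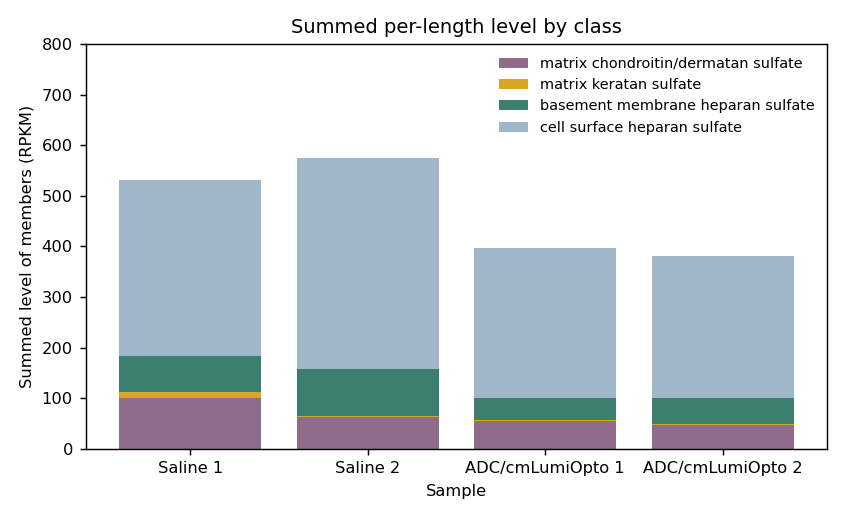
Summed per-length level (RPKM) of the 10 genes in each sample, stacked by class. The totals are 532 and 575 in Saline and 398 and 381 in ADC/cmLumiOpto, and the cell surface genes are the largest class in all 4 samples.

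The longer genes had the lower fold changes in these samples. Vcan, Hspg2 and Agrn are among the longest 25% of the genes tested (6483 bases or more), where the median log2 fold change was -0.23 and 25.2% of genes were lower at an unadjusted p under 0.05, against 2.92% among the shortest 25%. With this trend removed the log2 fold changes of Vcan and Hspg2 were -1.07 and -0.86 (edgeR adjusted p = 0.151 for both) and that of Agrn was 0.19. In that setting 5 of the 10 genes were lower at an unadjusted p under 0.05 (9.54% of all genes). These were Vcan, Lum, Hspg2, Sdc1 and Sdc4, so Dcn, Bgn and Gpc1 no longer passed. The summed level of 15 fibroblast markers was 5617 and 4160 CPM in Saline and 2471 and 2230 CPM after treatment. The collagen genes Col1a1, Col1a2 and Col3a1 carried this difference, since the other 12 markers summed to 909.9 and 1031 CPM in Saline and to 952 and 1048 CPM after treatment. Of the 15 markers, 6 had both treated samples above both Saline samples (28.1% of all genes) and 6 had both below (28.8%). The median log2 fold change of the 15 was -0.080. At an unadjusted p under 0.05 in edgeR, 5 of these markers were lower (Col1a1, Col1a2, Col3a1, Pdgfra and Pdgfrb) and 5 higher (Tcf21, Mfap4, Pi16, Dpt and Inmt), named after their values were seen. The shares of all genes were 12.2% lower and 11% higher. The part of the stromal cells in the values of the 10 genes was not tested.

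Promoter windows from RefSeq (GRCm38.p6, a different build from the listed gene positions) were found for 7 of the 10 genes. The 250 bases upstream of the start are shown for Vcan and Hspg2, the genes with the lowest unadjusted p values, and for Agrn, the other basement membrane gene, whose groups overlapped. They lie at chr13:89742513-89742762 (minus strand), chr4:137468553-137468802 (plus strand) and chr4:156197489-156197738 (minus strand, the outer of 2 listed starts). Capitals mark matches on either strand to the letters of a GC box (GGGCGG) or a CCAAT box (CCAAT), with overlapping matches counted separately.
Vcan: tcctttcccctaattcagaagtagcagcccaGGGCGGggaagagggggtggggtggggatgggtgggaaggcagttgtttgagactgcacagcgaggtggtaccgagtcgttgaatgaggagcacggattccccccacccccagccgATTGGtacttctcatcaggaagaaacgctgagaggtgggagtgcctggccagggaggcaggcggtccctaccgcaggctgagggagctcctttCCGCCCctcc
Hspg2: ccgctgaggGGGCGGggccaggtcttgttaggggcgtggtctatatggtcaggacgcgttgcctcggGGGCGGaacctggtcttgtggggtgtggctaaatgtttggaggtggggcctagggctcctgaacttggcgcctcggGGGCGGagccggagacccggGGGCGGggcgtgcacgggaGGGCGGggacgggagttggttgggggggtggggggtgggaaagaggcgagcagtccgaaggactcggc
Agrn: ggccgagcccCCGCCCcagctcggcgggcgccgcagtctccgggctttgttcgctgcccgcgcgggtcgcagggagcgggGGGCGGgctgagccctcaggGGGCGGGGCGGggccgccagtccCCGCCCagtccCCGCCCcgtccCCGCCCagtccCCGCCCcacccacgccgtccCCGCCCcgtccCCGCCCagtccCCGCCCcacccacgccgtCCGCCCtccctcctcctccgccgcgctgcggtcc

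The Vcan window held 2 GC boxes and 1 CCAAT box, the Hspg2 window 5 GC boxes and the Agrn window 12 GC boxes, with GC contents of 62.4%, 70.0% and 83.6% against a median of 52.4% over 32817 windows. A GC box was present in 32.7% and a CCAAT box in 33.8% of all windows. The letters of an AP-1 site (TGACTCA, in 4.46% of windows), a TATA box (TATAAA, 12.4%) and a TEAD site (GGAATG, 12.6%) were searched on both strands and did not occur in the windows of these 3 genes. Of the other matched genes, Bgn had 3 GC boxes, Sdc1 3, Sdc4 4 and Fmod 0, and Sdc1 had 1 CCAAT box.

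The genes around the 10 were examined as 8 lists of related proteoglycans and of the enzymes that build, sulfate and degrade their chains, with 110 of 144 genes tested. In edgeR's quasi-likelihood test 0 of the 110 had an adjusted p under 0.05, and 0 did in limma-voom. DESeq2 gave 15 lower and 2 higher, where 774 of all 15320 genes were lower and 579 higher. The edgeR exact test gave 12 lower and 1 higher, where 564 of all genes were lower and 606 higher. At an unadjusted p under 0.05, 24 were lower and 11 higher, where the shares of all genes were 12.2% and 11%, and the median log2 fold change was -0.21 (0.028 for all genes). The median was -0.13 without Saline replicate 2 (119 genes tested) and -0.095 once the length trend was taken out. The shares of 12.2% and 11% apply to the counts of each list below in edgeR's quasi-likelihood test.

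Of the 11 other matrix proteoglycans tested, 6 were higher and 1 was lower at an unadjusted p under 0.05, and 7 had both treated samples above both Saline samples, with a median log2 fold change of 1.02. The shares of all genes were 11%, 12.2% and 28.1% for these counts. Aspn, which encodes asporin, a small leucine-rich protein related to decorin, was counted 20 times in both Saline samples, and 84 and 90 times after treatment (log2 fold change 1.81, edgeR adjusted p = 0.116). Chad, which encodes chondroadherin, had 6 and 5 counts in Saline and 23 and 27 after treatment (log2 fold change 1.86, edgeR adjusted p = 0.148). Col18a1, a collagen of basement membranes that carries heparan sulfate, had 6120 and 8879 counts in Saline and 4864 and 4629 after treatment (log2 fold change -0.97, edgeR adjusted p = 0.123). The median of this list ranged from 0.64 to 1.14 when single samples were left out. The median counts scarce and abundant genes alike. The 21 genes listed, tested or not, summed to 474 and 652 CPM in Saline and to 406 and 375 CPM after treatment. Col18a1 made up 383 and 598 CPM of this in Saline and 276 and 226 CPM after treatment.

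Among 8 tested cell surface proteoglycans outside the 10, 7 had a log2 fold change below 0 (48.0% of all genes) and the median was -0.39. At an unadjusted p under 0.05, 3 were lower (12.2% of all genes) and 1 higher (11%). Sdc3, another syndecan, with 4279 and 3293 counts in Saline and 3005 and 3283 after treatment, had a log2 fold change of -0.57 (edgeR adjusted p = 0.141). Tgfbr3, the TGF-β co-receptor betaglycan, had one of -0.67 (edgeR adjusted p = 0.139). The glypican Gpc3 was the exception, with 509 and 241 counts in Saline, 817 and 823 after treatment and a log2 fold change of 0.84 (edgeR adjusted p = 0.185), whereas that of Gpc1 was -0.40.

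Of 12 tested genes of hyaluronan synthesis and turnover, 7 were below 0 (48.0% of all genes), with a median of -0.26. This median was 0.042 without Saline replicate 2, 0.083 without ADC/cmLumiOpto replicate 1 and 0.057 without the filter on low counts. Has2, the synthase of the sugar chain that versican binds, had 1343 and 1526 counts in Saline and 636 and 806 after treatment, and its log2 fold change was -1.31 (standard error 0.18, edgeR adjusted p = 0.116). The groups of Has2 did not overlap. Lyve1, a hyaluronan receptor of lymphatic endothelium, had a log2 fold change of 0.58 and Hmmr, a hyaluronan-binding protein of the mitotic spindle, one of -0.50 (edgeR adjusted p = 0.141 and 0.218).

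Among the 22 genes of linker and chain synthesis, 14 had a log2 fold change below 0, where 48.0% of all genes did. At an unadjusted p under 0.05, 5 were lower (12.2% of all genes) and 2 higher (11% of all genes). The median was -0.19 and ranged from -0.29 to -0.18 when single samples were left out. Ugdh, which makes the UDP-glucuronic acid used in these chains, had 2418 and 2590 counts in Saline and 1551 and 2021 after treatment, and its log2 fold change was -0.80 (edgeR adjusted p = 0.116). Pxylp1, a phosphatase of the linker sugar xylose, and Chpf2, a chondroitin polymerising factor, had values of -0.74 and -0.94 (edgeR adjusted p = 0.117 and 0.123). Of 14 heparan sulfate modifying genes, 12 were below 0 and 4 were lower at an unadjusted p under 0.05. These included Sulf2, an extracellular sulfatase, at -0.76, the sulfotransferase gene Hs6st2 at -1.80 and Papss1, which makes the sulfate donor, at -0.51 (edgeR adjusted p = 0.123, 0.143 and 0.146). Of 11 genes that sulfate or epimerise the other chains, 4 were lower (12.2% of all genes) and 0 higher at an unadjusted p under 0.05. The count of lower genes was 2 in DESeq2 (11.6% of all genes) and 2 in the edgeR exact test (11.2% of all genes). The median of these genes was -0.17 and ranged from -0.43 to -0.026 when single samples were left out. Chst11, a chondroitin sulfotransferase, had 1142 and 1294 counts in Saline and 432 and 764 after treatment, a log2 fold change of -1.36, and Chst2 and the epimerase homologue gene Dsel had -0.84 and -0.57 (edgeR adjusted p = 0.116, 0.116 and 0.1996).

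Enzymes that cleave proteoglycans, their chains or their neighbours showed 6 of 17 genes lower (12.2% of all genes) and 0 higher (11%) at an unadjusted p under 0.05, with a median of -0.28. This median ranged from -0.45 to -0.19 when single samples were left out. Mmp2, a gelatinase of stromal cells, had 2878 and 1733 counts in Saline and 683 and 878 after treatment, and its log2 fold change was -1.86 (standard error 0.24). Adamts9, a versican-cleaving protease, was at -0.95, and Mmp3 was at -1.04, and all 3 proteases had an edgeR adjusted p of 0.116. The 15 genes of lysosomal chain degradation had a median of -0.072 (0.013 with upper-quartile normalization), with 0 lower and 1 higher at an unadjusted p under 0.05. That gene was Hexa, a hexosaminidase subunit, at 0.75, and the sulfatase gene Arsb was at -0.23 (edgeR adjusted p = 0.165 and 0.425).

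**Figure D4:**
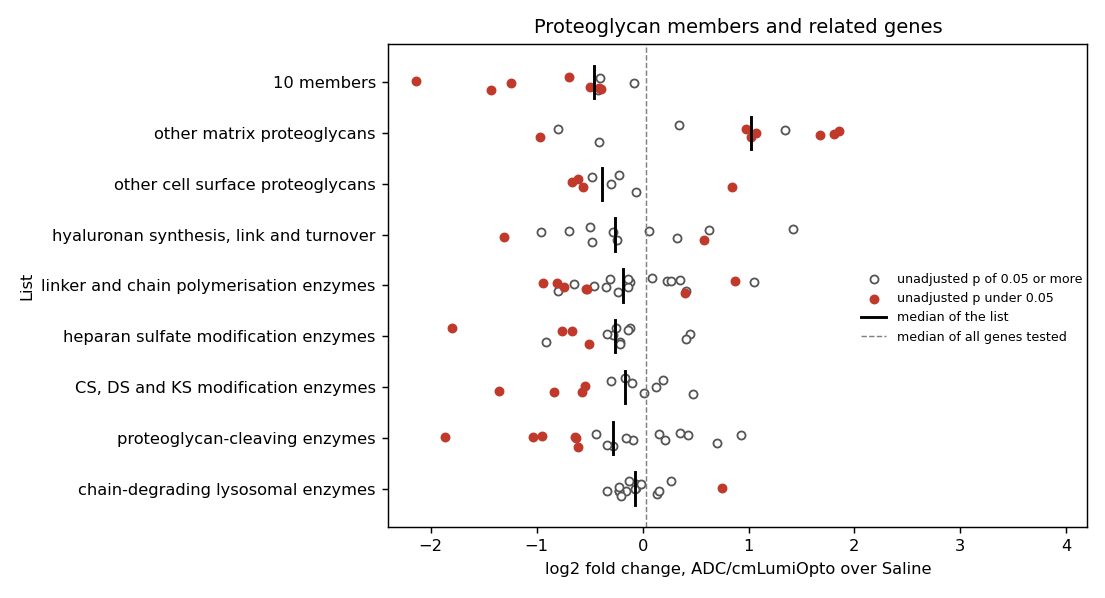
Log2 fold change of ADC/cmLumiOpto over Saline for each tested gene of the 10 members and of the 8 related lists, 1 point per gene with vertical jitter, the median of each list (black bar) and of all genes tested (dashed line). CS, DS and KS stand for chondroitin, dermatan and keratan sulfate. The members have a median of -0.46 and the other matrix proteoglycans one of 1.02. The summed CPM of the other matrix proteoglycans was lower in both treated samples than in both Saline samples.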

How the data were processed

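The deposited table holds unnormalized counts per gene for 2 Saline and 2 ADC/cmLumiOpto samples. The submitters' processing notes name HISAT2, HISAT, TopHat2 and build mm39, the paper's methods name GRCm38, and the program that counted reads is not given in the sources used here. The paper gives more samples per group than were analysed here. The paper describes biological samples from treated mice, and the labels do not say which mouse each sample came from, so p-values measure the spread between these samples. Whether reads were counted by strand is not stated. The test used edgeR 4.0.16 (R 4.3.3): filterByExpr (minimum count 10, minimum total 15) kept 15320 genes, scaled by TMM and compared by glmQLFit and glmQLFTest with a prior count of 0.125 and Benjamini-Hochberg adjustment over all genes tested. The standard error is the log2 fold change divided by the square root of F. Ratios within samples were compared by exact permutation in scipy 1.17.1. Alternatives were DESeq2 1.42.0, the edgeR exact test, limma-voom (limma 3.58.1), other scaling, filters, a replicate block, a lowess trend on gene length (span 0.3) removed through offsets, and each sample left out. Members and lists were chosen with earlier results of these data known. Named genes are the 10 members and the 3 genes of each related list with the smallest p, of which 1 is not reported here. RefSeq promoter windows (GRCm38.p6, 250 bases) were searched for motifs. The procedure was tested on simulated data.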

Additional observations from a re-analysis of the deposited data

How the results depend on the processing

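Over all genes, the count past the adjusted threshold was 0 in edgeR's quasi-likelihood test (3553 genes at an unadjusted p under 0.05), 1353 in DESeq2, 1170 in the edgeR exact test, 2259 without the filter on low counts, 607 with a replicate block, 1 with the replicate block and the length trend removed, and between 0 and 218 when single samples were left out (218 without Saline replicate 1). Of the 10 members, 2 passed in DESeq2, 2 in the exact test, 3 with the replicate block (Vcan, Hspg2 and Lum) and 4 without the filter (these and Bgn). The samples of the same number shared no known source and their deviations correlated at 0.099 across genes, so the numbers were not taken as pairs. The count of members lower at an unadjusted p under 0.05, 7, was 4 in the exact test, 4 without TMM, 3 with upper-quartile normalization, 3 with at least 10 counts in every sample, 4 for protein-coding genes only, and between 3 and 5 when single samples were left out (3 without Saline replicate 1 and 3 without ADC/cmLumiOpto replicate 2). Agrn was reversed at 0.0062 with upper-quartile normalization, at 0.19 with the length trend removed and at 0.19 with the block added. Fmod ranged from -1.02 to 0.66 when single samples were left out, above 0 without Saline replicate 1. The other 8 members kept their direction in all 15 alternatives. The causes were not tested. Fmod had down to 12 counts per sample, and Lum differed by 5.18 times between the Saline samples. With 1 sample left in a group, that sample was assumed to vary like the others.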
